A study of Mus musculus with 12 samples.

Results

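Splenic B cells that had lost both Hnrnpa1 and Hnrnpa2b1 (double knockout, DKO) were compared with wild-type (WT) B cells after 48 h in culture with anti-IgM at 10 µg/mL and anti-CD40 at 1 µg/mL. The comparison took the 2 stimulated DKO and the 2 stimulated WT libraries, 4 of the 12 libraries of the series, and all 14430 genes with enough counts to be tested. Cells came from mouse spleen and were enriched as B cells with beads that removed cells carrying CD43. Deletion used Cre and loxP sites; the Cre driver, the age of the mice and the number of mice behind a library were not given in the sources used here. The study's question is the role of both proteins in germinal centre responses of B cells. Its libraries are called WT 1, the unnumbered WT library, DKO 1 and DKO 2, and values are given in that order. Whether the replicates are separate animals is not in the labels, and p-values therefore cover the spread among these 4 libraries alone, which may be technical.

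hnRNP A1 and hnRNP A2B1 are related nuclear proteins that bind RNA through paired RNA recognition motifs and act in splice site choice, RNA export and RNA stability. In a B cell, anti-IgM crosslinks the antigen receptor and anti-CD40 stands in for the CD40 ligand of a helper T cell. Together these signals work through the receptor kinases, calcium, the MAP kinases and NF-kB, and the cell grows, divides, changes its surface receptors and presents antigen on MHC class II.

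Transcripts of both targeted genes were much lower in the DKO libraries but did not reach 0. Hnrnpa1 (ENSMUSG00000046434, GRCm39 chr15:103148859-103155119, plus strand) stood at 1710 and 1646 CPM (counts relative to the library's total, scaled by the TMM method) in WT and at 266 and 243 CPM in DKO. Its log2 fold change, DKO over WT throughout, was -2.72 ± 0.20 (standard error, n = 2 and 2 libraries; edgeR adjusted p = 0.000321). Hnrnpa2b1 (ENSMUSG00000004980, GRCm39 chr6:51437912-51446874, minus strand) stood at 1794 and 1755 CPM in WT and at 347 and 428 CPM in DKO, a change of -2.19 ± 0.20 (edgeR adjusted p = 0.00115). For each gene both DKO libraries lay far below both WT libraries. Whole-gene counts include any reads outside the deleted exons, and in bulk RNA undeleted cells and residual transcripts per cell cannot be told apart. The same holds for every gene below: fewer cells of a type and less RNA per cell cannot be told apart.

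The libraries held from 16790871 to 21731893 counts on genes. Log2 CPM values correlated across genes at 0.989 between the WT libraries and at 0.976 between the DKO libraries, and both pairs differed by more than counting noise. DKO 1 departed from the other libraries by gene length. Its median log2 CPM minus the WT mean was 0.22 in the shortest of 5 equal bins of exonic length and -0.36 in the longest, against 0.11 and -0.01 in DKO 2. In the main comparison 188 genes rose and 64 fell in the shortest bin, and 78 rose and 256 fell in the longest. The part of this in the results was not tested beyond the offsets given with the alternatives. All 4 libraries held counts of the Y-linked genes Ddx3y and Kdm5d and at most 4 counts of Xist.

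**Figure D1:**
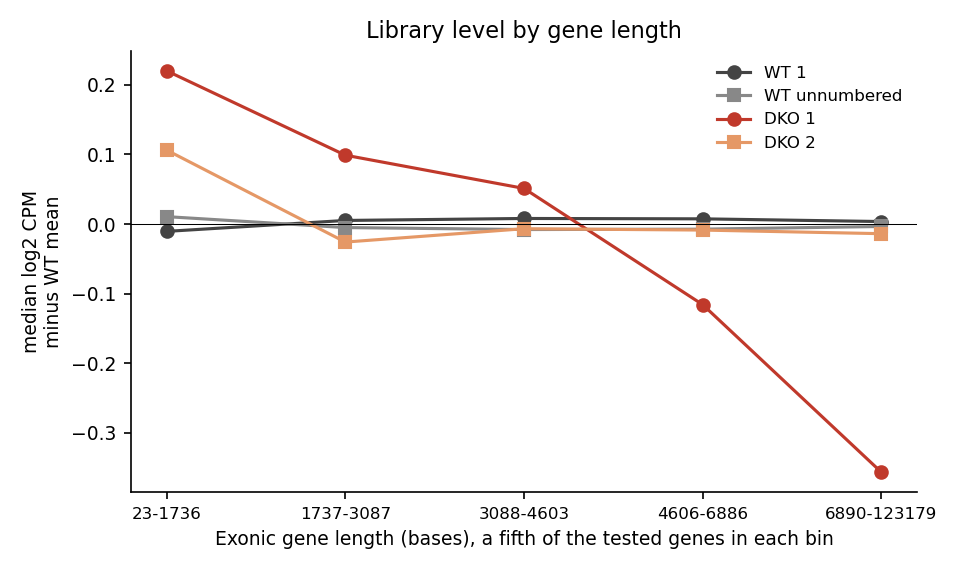
Median log2 CPM of each library minus the mean of the WT libraries (vertical axis), in 5 equal bins of exonic gene length in bases (horizontal axis), for the 14430 tested genes. DKO 1 runs from 0.22 in the shortest bin to -0.36 in the longest, while DKO 2 lies at 0.11 in the shortest bin and near 0 in the others.

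Of the tested genes, 1625 (11.3%) passed an edgeR adjusted p of 0.05. In DKO cells 734 genes (5.09%) were higher and 891 (6.17%) were lower, and the median log2 fold change of all tested genes was -0.03. A change of at least 1 on the log2 scale was reached by 895 genes (6.20%), 371 of the higher genes (2.57%) and 524 of the lower genes (3.63%). The DKO values did not overlap the WT values for 8878 genes (61.5%; 29.7% higher and 31.9% lower), so the absence of overlap alone says little here. All 1625 genes that passed were without overlap. For a gene that passed, a gap between the groups is therefore no added support. Counts of list members below are to be read against these shares of all tested genes. The count depended on which library was left out: it was 743 without WT 1, 576 without the unnumbered WT library, 3481 without DKO 1 and 5977 without DKO 2. Each of these fits has 1 residual degree of freedom, so the spread comes from the genotype that keeps a pair of libraries, and the lone library is assumed to vary like them. Of the 171 genes that the naming rule takes, 60 passed whichever library was left out, and in each group below those genes are named as the ones that held. The word covers these 4 fits only and is no independent support.

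**Figure D2:**
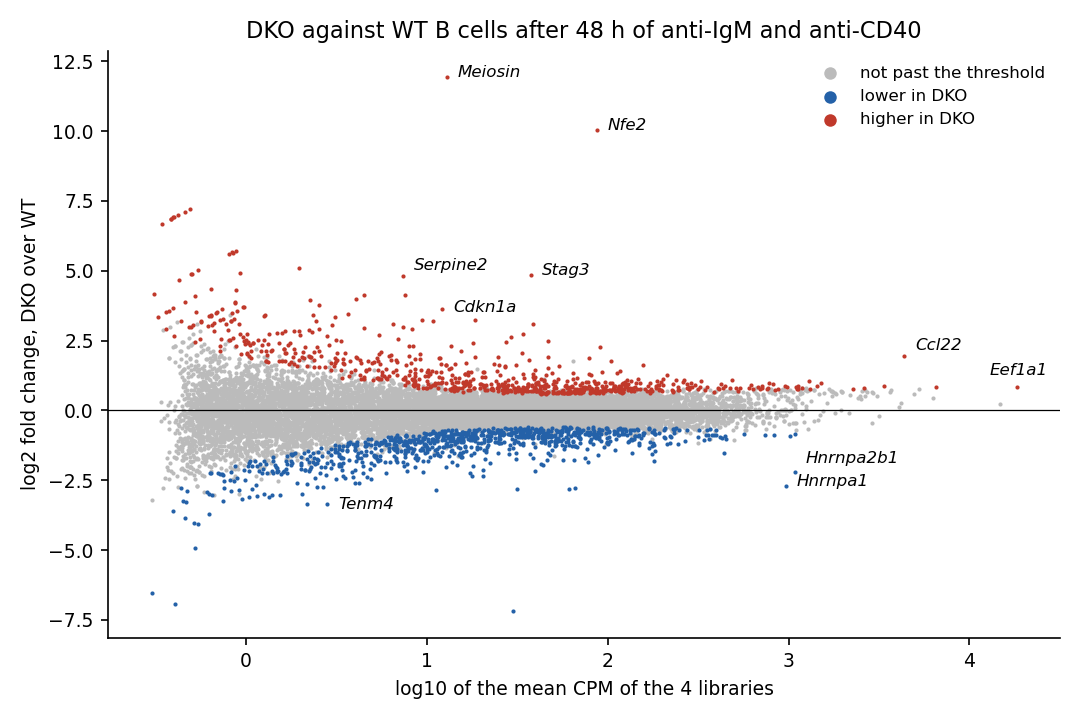
Log2 fold change of DKO over WT (vertical axis) against the log10 of the mean CPM of the 4 stimulated libraries (horizontal axis), 1 point a gene, with genes past an adjusted p of 0.05 in red where higher and in blue where lower. The 734 higher and 891 lower genes spread over the whole range of expression, with Meiosin and Nfe2 at the top and Hnrnpa1 and Hnrnpa2b1 the lowest at high expression.

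The largest rises were of genes nearly silent in WT cells. Meiosin, a regulator of meiotic entry in germ cells (GRCm39 chr7:18832971-18852293), had 0 counts in each WT library and 628 and 348 counts in the DKO libraries. Against a floor of 3 counts over the WT group, with the DKO counts taken as exact, the ratio was 311. The two-sided 95% counting interval of the ratio, which also takes in the error of the DKO counts, starts lower, at 252.5. Nfe2, an erythroid and megakaryocyte transcription factor, was at 0.204 and 0.108 CPM in WT and 201 and 147 CPM in DKO, with 6 counts in all WT reads and 6561 in all DKO reads, a ratio of 1046 (95% counting interval 480 to 2850). Nfe2 (GRCm39 chr15:103156639-103166830, minus strand) lies beside Hnrnpa1 on the other strand, and its value is uncertain because the counting strand was not given in the sources used here. Both genes were far apart between the groups in every library. Of 6 tested genes within 100 kb of Hnrnpa1, Nfe2 rose and Zfp385a fell (-0.71 ± 0.19, edgeR adjusted p = 0.0422).

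Meiotic and germline genes as a list held 13 tested genes of 43, since most had few or no counts, and 14 had 0 counts in all 4 libraries. Of the 13 tested, 6 rose and 0 fell, with a median log2 fold change of 0.56. A gene with enough counts in 1 genotype alone entered the test, as Meiosin did. The filter can therefore favour members that changed, and the share of risers among the tested members is no support. With no filter on low counts, 29 members were tested, 7 higher and 1 lower, with a median of 0.34. DESeq2 gave 5 higher and 0 lower. Stag3, a cohesin subunit of meiotic chromosomes, was at 2.96 and 2.06 CPM in WT and at 69.6 and 75.7 CPM in DKO (4.85 ± 0.23, edgeR adjusted p = 3.34e-05). Syce2, a protein of the synaptonemal complex that joins paired chromosomes, was at 14.7 and 11.98 CPM in WT and 45.3 and 35.6 CPM in DKO (1.60 ± 0.20, edgeR adjusted p = 0.00396). In both genes the DKO libraries lay close together and well above both WT libraries. Iho1, needed for meiotic DNA breaks, rose from 1.07 and 0.705 CPM to 3.58 and 2.97 CPM (1.87 ± 0.41), and Smc1b and Hsf2bp, named after their values were seen, rose from under 1 CPM (2.52 ± 0.58 and 2.65 ± 0.74). Spo11, the enzyme of meiotic breaks, and Rec8, a meiotic cohesin, did not pass, with values of -1.27 and -1.16. Meiosin, Stag3 and Syce2 held. The count of higher genes in this list was 4 without WT 1, 3 without the unnumbered WT library and 5 without either DKO library, beside 3 lower genes without DKO 2.

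Promoters of the germline genes that rose are shown because those genes moved together from low levels. RefSeq promoters (GRCm38.p6, an older build than that of the counts, from 250 bases before to 50 bases after the start) were searched on both strands for GCGGGAA, which holds the core shared by E2F-family sites. The motif is in 4.60% of all 32851 RefSeq mouse promoters. It was found in 4 of the 5 risers of the list that had a promoter under their symbol (Stag3, Syce2, Smc1b and Hsf2bp) and not in that of Iho1. The promoter of Meiosin was not searched. Over the whole list, whatever the change, 13 of 37 members with a promoter held it, so the motif also marks members that did not rise. Here and in the searches below, a gene was counted if any of its promoters held the motif. The share over all promoters counts each promoter singly. Genes with several promoters, such as Syce2 with 2, thus had more places for a match, and the shares are not measured alike. Capitals mark the match in the promoters of Stag3 (chr5:138280259-138280558, plus strand, match on the other strand) and Syce2 (chr8:84872008-84872307, plus strand), 5′ to 3′. A match is a description of these letters and not a bound site.
Stag3: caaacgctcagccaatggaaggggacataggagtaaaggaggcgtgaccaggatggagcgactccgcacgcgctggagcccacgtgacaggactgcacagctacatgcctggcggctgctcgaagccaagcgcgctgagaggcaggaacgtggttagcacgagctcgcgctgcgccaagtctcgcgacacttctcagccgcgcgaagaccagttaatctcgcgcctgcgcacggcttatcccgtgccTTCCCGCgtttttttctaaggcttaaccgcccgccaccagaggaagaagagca
Syce2: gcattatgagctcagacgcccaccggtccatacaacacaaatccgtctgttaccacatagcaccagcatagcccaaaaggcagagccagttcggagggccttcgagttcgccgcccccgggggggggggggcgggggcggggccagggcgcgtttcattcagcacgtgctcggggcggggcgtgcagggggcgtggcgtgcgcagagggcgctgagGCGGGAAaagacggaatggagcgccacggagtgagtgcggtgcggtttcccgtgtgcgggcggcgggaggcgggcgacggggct

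**Figure D3:**
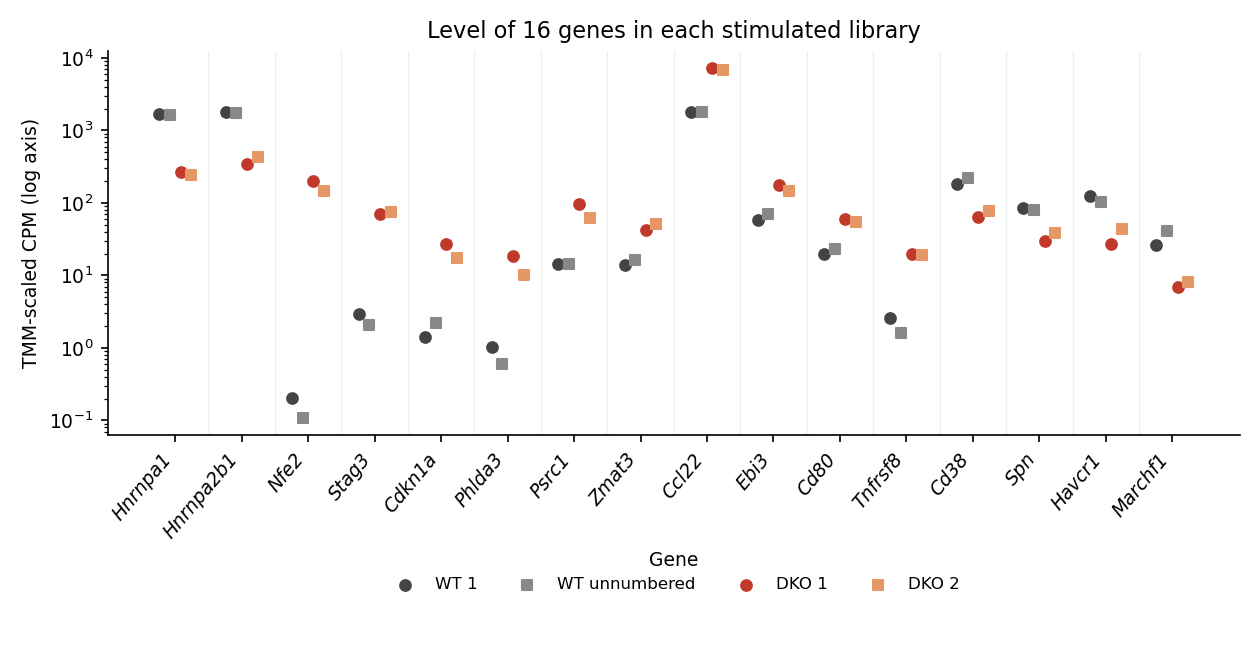
TMM-scaled CPM (vertical axis, log scale) of 16 genes in each of the 4 stimulated libraries, with WT in greys and DKO in reds. For each gene both DKO libraries lie on the same side of both WT libraries, from Nfe2 (201 and 147 CPM against 0.204 and 0.108) to Cd38 (64.1 and 78.4 against 184 and 221). All 1625 genes past the threshold share this, so it adds no support.

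Genes of the p53 response, which p53 switches on under stress to halt division or start cell death, were among the largest rises. Of 33 tested genes listed as p53 targets 11 rose and 4 fell (45.5% called, against 11.3% of all tested genes), with a median log2 fold change of 0.50. Whether each listed gene answers to p53 in these cells was not tested. Cdkn1a, the inhibitor p21 of cyclin-dependent kinases, was at 1.43 and 2.22 CPM in WT and 27.5 and 17.4 CPM in DKO (3.62 ± 0.32, edgeR adjusted p = 0.00115). Phlda3, a repressor of AKT, was at 1.02 and 0.596 CPM in WT and 18.7 and 10.1 CPM in DKO (4.14 ± 0.41, edgeR adjusted p = 0.00137). For both genes the levels were low in both WT libraries and DKO 1 was the highest library. Psrc1, a microtubule regulator, rose from 14.4 and 14.3 CPM to 96.3 and 62.0 CPM (2.47 ± 0.23). Zmat3, an RNA-binding p53 target, rose from 14.04 and 16.5 CPM to 42.2 and 51.3 CPM (1.61 ± 0.19). The groups were well apart in both. Weaker rises were those of Tnfrsf10b, a death receptor (1.02 ± 0.20), Bax, an effector of mitochondrial cell death (0.86 ± 0.21), and Sesn2, a stress-induced inhibitor of growth signalling (0.87 ± 0.23).

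In the same list Trp53inp2, an autophagy protein, fell from 12.9 and 13.2 CPM to 3.68 and 4.31 CPM (-1.71 ± 0.23, edgeR adjusted p = 0.00508). Sesn1 (-0.83 ± 0.18), Ccng2 (-0.85 ± 0.22) and Btg2 (-0.80 ± 0.19) fell too. Levels of Trp53, which encodes p53 (0.51 ± 0.20, edgeR adjusted p = 0.12), and of Mdm2, its inhibitor and target (0.32 ± 0.16, edgeR adjusted p = 0.214), did not pass. Cdkn1a, Phlda3, Psrc1, Zmat3 and Trp53inp2 held. Higher and lower calls in the list numbered 6 and 2 without WT 1, 6 and 1 without the unnumbered WT library, 15 and 6 without DKO 1, and 19 and 8 without DKO 2. Of the 12 tested D cyclins, their kinases and their inhibitors, Cdkn1a alone passed. In the list of DNA damage response factors 1 of 36 rose (Rnf8, a ubiquitin ligase at DNA breaks, 0.89 ± 0.18) and 1 fell (Wrn, a helicase, -0.85 ± 0.19).

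Cell division genes did not move together past the threshold. None of 44 tested G1/S and replication genes passed, with a median of 0.34 and 39 of 44 values above 0; leaving out DKO 1 or DKO 2 gave 17 and 24 higher calls. Of 43 mitotic genes 1 passed, Mybl2, a transcription factor of dividing cells, which rose from 140 and 114 CPM to 310 and 247 CPM (1.13 ± 0.20, edgeR adjusted p = 0.012), but not without the unnumbered WT library. With DESeq2 the list had 1 higher and 2 lower calls, without DKO 1 it had 1 and 7, and without DKO 2 it had 6 and 11. Mki67, the proliferation marker, was at 1560 and 1579 CPM in WT and at 783 and 1604 CPM in DKO (-0.40 ± 0.30, edgeR adjusted p = 0.41). The DKO libraries thus disagreed on Mki67, with DKO 2 at the WT level. Among 20 BTG/TOB and other quiescence genes 0 rose and 3 fell, with Ypel3 at -0.86 ± 0.22.

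Genes of ribosome production had higher values in DKO cells, by modest amounts. Of 81 cytosolic ribosomal protein genes, all 81 had a value above 0 and 34 passed as higher (42.0%, against 5.09% of all tested genes), with a median log2 fold change of 0.75. Rps21 was at 151 and 153 CPM in WT and 379 and 271 CPM in DKO (1.09 ± 0.21, edgeR adjusted p = 0.0151). Rplp0, of the ribosomal stalk, rose from 2321 and 2442 CPM to 5123 and 3543 CPM (0.86 ± 0.23). DKO 1 was the higher DKO library in both. Summed over the list the libraries stood at 65619 to 68593 CPM in WT and at 88622 to 118647 CPM in DKO. Here and in the marker sums below, summed CPM is counts over the library's total without TMM scaling, unlike single-gene values. The TMM factors, which multiply the totals, were 1.018 and 1.051 in WT and 0.951 and 0.983 in DKO. Of 40 nucleolar ribosome biogenesis genes 17 rose and 0 fell, with a median of 0.66. Nop56, of the particles that modify ribosomal RNA, rose from 353 and 270 CPM to 714 and 619 CPM (1.10 ± 0.20), and Polr1b and Polr1c, subunits of RNA polymerase I, rose by 0.94 ± 0.19 and 1.01 ± 0.19. Npm1, an abundant nucleolar chaperone, rose from 1957 and 1840 CPM to 3419 and 3263 CPM (0.82 ± 0.19). The translation elongation factors Eef1a1, from 13175 and 13145 CPM to 25183 and 21413 CPM (0.82 ± 0.21), and Eef2 (0.83 ± 0.22) were among the largest gains in CPM.

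None of these ribosome and elongation genes held the call without each library in turn. Ribosomal protein calls numbered 0 without either WT library, 78 without DKO 1 (median 0.47) and 81 without DKO 2 (median 1.01). They numbered 79 with DESeq2, 78 with no filter on low counts and 81 in the fit over 10 libraries. Ribosome biogenesis calls numbered 3 without WT 1, 0 without the unnumbered WT library, 33 without DKO 1 and 35 without DKO 2. Ribosomal protein genes are short, and with offsets for exonic length 72 of 81 passed with a median of 0.67. Near-identical pseudogenes share reads with ribosomal protein genes, so single values are uncertain. Myc, which drives growth and ribosome production, rose from 180 and 161 CPM to 399 and 322 CPM (1.08 ± 0.19, edgeR adjusted p = 0.0122), while Mxd4, a repressor that competes for its partner Max, fell (-0.98 ± 0.18). Myc lost the call without either WT library, and Mxd4 lost it without the unnumbered WT library.

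The respiratory chain and glycolysis lists passed about as often as all tested genes in either direction (11.3%). The respiratory chain calls were all higher, however, and 5.09% of all tested genes were higher. Of the 38 values of that list 34 were above 0, with a median of 0.45. Of 38 respiratory chain genes 4 (10.5%) rose (Cyc1, Cycs, Cox5a and Ndufa5), and this count was 0 without either WT library, 10 without DKO 1, 31 without DKO 2 and 20 in the fit over 10 libraries. Ndufa5 lost the call with DESeq2 and with length offsets. Of 28 glycolysis genes 3 passed (10.7%): 2 rose (Gpi1 at 0.78 ± 0.19 and the lactate transporter Slc16a1 at 0.72 ± 0.19) and 1 fell, the glucose transporter Slc2a3 (-0.69 ± 0.18), none of which held. Idh2, the mitochondrial isocitrate dehydrogenase, rose from 27.6 and 26.6 CPM to 56.5 and 53.3 CPM (1.02 ± 0.16, edgeR adjusted p = 0.00831). Dhtkd1, of lysine breakdown, fell from 6.13 and 6.94 CPM to 1.16 and 1.34 CPM (-2.39 ± 0.32, edgeR adjusted p = 0.0048), and held. Both genes had tight pairs of libraries on each side. Of 23 cholesterol synthesis genes 22 had values below 0 with a median of -0.40, and 2 fell, among them Hmgcs1, of the mevalonate pathway (-0.88 ± 0.20). Scd1, the enzyme that desaturates fatty acids, fell from 1338 and 1336 CPM to 671 and 740 CPM (-0.92 ± 0.19). The metal-binding metallothioneins Mt1 (6.69 and 5.64 against 20.01 and 18.3 CPM, 1.64 ± 0.21) and Mt2 (0.358 and 0.867 against 6.88 and 6.49 CPM, 3.45 ± 0.42) rose and held.

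Targets of CD40 and NF-kB were more often higher than lower. Of 30 tested genes 6 rose and 1 fell (23.3% called, against 5.09% higher and 6.17% lower of all tested genes), with a median of 0.24. Ccl22, a chemokine that draws T cells bearing CCR4, was at 1774 and 1790 CPM in WT and 7210 and 6714 CPM in DKO (1.97 ± 0.20, edgeR adjusted p = 0.00157). Ebi3, the shared subunit of the cytokines IL-27 and IL-35, rose from 57.7 and 69.8 CPM to 176 and 146 CPM (1.34 ± 0.19, edgeR adjusted p = 0.00593). Both DKO libraries exceeded both WT libraries by over the spread within a genotype, and both genes held. Traf1, an adaptor of TNF receptors (1.03 ± 0.19), the adhesion molecule Icam1 (0.83 ± 0.18) and Bcl2l1, which encodes the survival protein BCL-XL (0.85 ± 0.20), rose with smaller margins. Nfkbiz, a nuclear modulator of NF-kB, fell (-0.62 ± 0.16). Cd40 itself was at 86.7 and 77.8 CPM in WT and 143 and 102 CPM in DKO (0.58 ± 0.20, edgeR adjusted p = 0.0936). Higher and lower calls in the list numbered 2 and 0 without either WT library, 8 and 1 without DKO 1, and 14 and 5 without DKO 2.

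Activation and costimulation markers went both ways, with 6 rises and 5 falls among 27 tested genes. Tnfrsf8, which encodes the activation receptor CD30, was at 2.60 and 1.63 CPM in WT and 19.96 and 19.06 CPM in DKO (3.20 ± 0.27, edgeR adjusted p = 0.00102). Cd80, a ligand of CD28 on T cells, rose from 19.5 and 22.9 CPM to 60.2 and 55.4 CPM (1.45 ± 0.17, edgeR adjusted p = 0.00334). The TNF receptors Tnfrsf4 (1.36 ± 0.21) and Tnfrsf18 (1.18 ± 0.19) rose as well. The risers had narrow gaps within each genotype. Havcr1, which encodes the regulatory receptor TIM-1, fell from 126 and 102 CPM to 26.8 and 43.2 CPM (-1.71 ± 0.24, edgeR adjusted p = 0.00593), Cd2 fell from 11.7 and 11.2 CPM to 5.23 and 3.10 CPM (-1.45 ± 0.29), and Cd200 (-0.96 ± 0.17) and Slamf7 (-0.93 ± 0.17) fell too. Tnfrsf8, Cd80, Tnfrsf4, Tnfrsf18, Havcr1 and Cd2 held, and rises and falls numbered 5 and 3 without either WT library, 7 and 8 without DKO 1, and 10 and 7 without DKO 2. Cd69, an early activation marker, did not pass (-0.54 ± 0.18, edgeR adjusted p = 0.081).

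Among cytokines and chemokines 3 of 19 rose and 1 fell: Ccl22 and Ebi3 above, Csf2, which encodes GM-CSF, at 6 counts in WT and 56 in DKO (a ratio of 8.92, 95% counting interval 3.85 to 25.4), and Tgfb3, from 3.58 and 3.31 CPM to 0.727 and 0.850 CPM (-2.12 ± 0.39, edgeR adjusted p = 0.0135). Lrrc32, which encodes GARP, the surface anchor of latent TGF-beta, rose from 0.664 and 0.434 CPM to 7.07 and 4.25 CPM (3.35 ± 0.44, edgeR adjusted p = 0.00431). Tgfb3 and Lrrc32 held, and the receptor gene Tgfbr2 fell by a smaller amount (-0.71 ± 0.17). Of 19 AP-1 and immediate early genes 5 rose and 0 fell, with a median of 0.55 (2 rises without either WT library and 10 without DKO 2). Jun, an AP-1 subunit, rose from 5.98 and 7.75 CPM to 21.0 and 22.2 CPM (1.66 ± 0.21, edgeR adjusted p = 0.004), and Nr4a1, an orphan receptor that antigen signals induce, rose from 20.8 and 23.4 CPM to 62.3 and 47.8 CPM (1.32 ± 0.19, edgeR adjusted p = 0.00639). In both genes the DKO values were clear of the WT values, and both held. Batf, an AP-1 partner, rose too (0.99 ± 0.18). Egr1 (0.09) and Egr2 (0.26), which antigen receptor signals induce early, did not pass.

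Genes of the B cell receptor pathway moved the other way. Of 35 tested genes 0 rose and 10 fell (28.6%, against 6.17% of all tested genes), 33 had values below 0, and the median was -0.40. Cd5, a negative coreceptor, fell from 14.7 and 11.98 CPM to 5.52 and 4.31 CPM (-1.43 ± 0.24, edgeR adjusted p = 0.0103), with no overlap between the groups. Bank1, an adaptor, fell from 224 and 249 CPM to 93.8 and 121 CPM (-1.14 ± 0.19), and 2 inhibitory receptors fell, Cd22 from 543 and 599 CPM to 320 and 252 CPM (-0.997 ± 0.20) and Fcgr2b from 109 and 116 CPM to 61.1 and 60.8 CPM (-0.88 ± 0.16). Cd79a (-0.15), Cd79b (-0.40), Syk (-0.07) and Ighm (-0.19), the receptor chains and a kinase recruited to them, did not pass. Cd5 held. The count of lower genes was 4 without WT 1, 2 without the unnumbered WT library, 20 without DKO 1 and 17 without DKO 2.

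Of 15 MAP kinase feedback genes 3 fell and 0 rose. Etv5, an ETS factor induced by ERK, fell from 24.1 and 22.3 CPM to 6.78 and 5.16 CPM (-1.95 ± 0.21, edgeR adjusted p = 0.0022). Dusp6, the phosphatase of ERK, fell from 28.2 and 31.1 CPM to 14.6 and 13.3 CPM (-1.09 ± 0.18, edgeR adjusted p = 0.00948). Both had DKO values well under WT and held, while Spred2, an inhibitor of the RAS pathway (-0.81 ± 0.18), did not hold. Among 20 Toll-like receptor genes 4 fell and 0 rose, with a median of -0.41 (1 fall without WT 1, 2 without the unnumbered WT library, 7 without DKO 1 and 11 without DKO 2). Unc93b1, the chaperone of endosomal Toll-like receptors, fell from 345 and 334 CPM to 161 and 137 CPM (-1.19 ± 0.18, edgeR adjusted p = 0.00734) and held. Tlr7 (-1.01 ± 0.24), Tlr2 (-0.995 ± 0.20) and Irak4 (-0.73 ± 0.17) were the other falls, and Tlr9 was at -0.43 ± 0.22 (edgeR adjusted p = 0.221).

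Genes of antigen presentation on MHC class II were mostly lower. Of 17 tested genes 7 fell and 1 rose (47.1% called, against 6.17% lower and 5.09% higher of all tested genes), 15 had values below 0, and the median was -0.65. Marchf1, the ubiquitin ligase that removes MHC class II and CD86 from the surface, fell most, from 26.3 and 40.6 CPM to 6.93 and 8.19 CPM (-2.15 ± 0.25, edgeR adjusted p = 0.00277). H2-Ob, a subunit of the peptide-loading inhibitor H2-O, fell from 358 and 371 CPM to 168 and 174 CPM (-1.10 ± 0.17, edgeR adjusted p = 0.0082). In both genes the DKO libraries nearly coincided below WT. Ciita, the master activator of class II genes, fell from 297 and 278 CPM to 149 and 155 CPM (-0.92 ± 0.17). The class II chain H2-Ab1 fell from 992 and 925 CPM to 598 and 457 CPM (-0.86 ± 0.20), and H2-DMb1, of the peptide exchanger, fell from 78.0 and 88.2 CPM to 47.4 and 44.9 CPM (-0.85 ± 0.17). Levels of Cd74, the invariant chain, were 3339 and 3363 CPM in WT and 2937 and 1969 CPM in DKO (-0.45 ± 0.23, edgeR adjusted p = 0.228), below WT in both DKO libraries but far apart between them. Ifi30, a thiol reductase of antigen processing, rose from 85.0 and 78.6 CPM to 199 and 149 CPM (1.09 ± 0.19).

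Of the class II genes Marchf1 held. Lower calls in the list numbered 2 without WT 1, 1 without the unnumbered WT library, 13 without DKO 1 and 10 without DKO 2, with medians from -0.80 to -0.51 in these fits. Cd86, a costimulatory ligand that Marchf1 also acts on at the protein level, was among the higher activation markers at 42.2 and 30.1 CPM in WT and 62.7 and 69.6 CPM in DKO (0.87 ± 0.20, edgeR adjusted p = 0.0281; named after its value was seen). Of 20 MHC class I genes 3 fell and 0 rose (0 and 0 without either WT library), with H2-M3, a class Ib molecule that presents bacterial peptides, at -0.94 ± 0.18 and a median of -0.36. Promoters of class II genes are shown since these genes share the known X and Y boxes. GATTGG, the letters of the Y box core, was searched on both strands and is in 16.1% of the 32851 RefSeq promoters. It was found in 5 of 6 called members with a promoter in the table, and in 10 of 13 members whatever their change. Capitals mark the match in H2-Ob (GRCm38.p6 chr17:34238655-34238954, plus strand) and H2-DMb1 (GRCm38.p6 chr17:34152941-34153240, plus strand).
H2-Ob: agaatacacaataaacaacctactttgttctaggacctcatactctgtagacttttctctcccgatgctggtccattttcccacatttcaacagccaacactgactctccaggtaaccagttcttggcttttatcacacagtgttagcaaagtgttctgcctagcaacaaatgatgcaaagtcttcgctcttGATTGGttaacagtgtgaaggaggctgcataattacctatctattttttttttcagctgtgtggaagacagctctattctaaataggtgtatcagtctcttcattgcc
H2-DMb1: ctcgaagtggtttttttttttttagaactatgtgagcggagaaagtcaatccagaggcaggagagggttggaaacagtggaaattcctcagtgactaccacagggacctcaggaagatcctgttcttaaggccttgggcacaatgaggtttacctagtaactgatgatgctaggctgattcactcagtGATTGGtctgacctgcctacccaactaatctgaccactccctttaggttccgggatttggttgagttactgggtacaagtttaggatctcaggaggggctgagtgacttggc

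Interferon-stimulated genes included some of the deepest falls, but the DKO libraries differed on the list. Of 45 tested genes 9 fell and 0 rose, with a median of -0.40. Ifi211, a DNA-sensing PYHIN protein, fell from 34.9 and 24.7 CPM to 7.75 and 3.70 CPM (-2.36 ± 0.33, edgeR adjusted p = 0.00532). Its neighbours on chromosome 1, Ifi209 (224 and 196 against 103 and 74.9 CPM, -1.24 ± 0.21) and Ifi203 (605 and 605 against 304 and 290 CPM, -1.03 ± 0.18), fell as well, and Ifi208 fell from a level that differed between the WT libraries (2.71 and 10.9 against 0.920 and 1.34 CPM, -2.60 ± 0.61). The PYHIN falls were present in both DKO libraries, and Ifi211 and Ifi209 held. These genes are close paralogues, and reads could be split between them. Stat2, of interferon signalling, fell too (-0.97 ± 0.19). In contrast, Isg15 (2.50 and 0.867 against 4.94 and 0.910 CPM) and Irf7 (3.78 and 1.25 against 7.65 and 1.88 CPM) did not pass and differed more within a genotype than between genotypes. The list median was -1.06 without DKO 1, 0.03 without DKO 2, 0.04 without WT 1 and -0.71 without the unnumbered WT library, and lower calls numbered 31, 14, 3 and 12 in that order, beside 7 higher calls without DKO 2 and 1 without WT 1. WT 1 and DKO 1 were thus the libraries with more of these transcripts.

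Promoters of Ifi203 and Ifi211 are shown as a pair of neighbours that fell in both DKO libraries. The letters GAAA, any 2 bases and GAAA again, a pattern of interferon response elements, were searched on both strands. The pattern is in 3.44% of RefSeq promoters, in 7 of 8 called members of the list with a promoter (not Ifi209) and in 24 of 39 members whatever their change. Capitals mark the match in Ifi203 (GRCm38.p6 chr1:173942443-173942742, minus strand) and Ifi211 (GRCm38.p6 chr1:173912997-173913296, minus strand), where it falls at nearly the same place and is followed by the same letters.
Ifi203: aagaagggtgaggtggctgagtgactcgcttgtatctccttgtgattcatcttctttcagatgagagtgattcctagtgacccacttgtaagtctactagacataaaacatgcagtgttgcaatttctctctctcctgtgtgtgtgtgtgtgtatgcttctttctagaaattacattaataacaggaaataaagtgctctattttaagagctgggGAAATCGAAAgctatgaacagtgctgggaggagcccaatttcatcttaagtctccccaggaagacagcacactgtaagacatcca
Ifi211: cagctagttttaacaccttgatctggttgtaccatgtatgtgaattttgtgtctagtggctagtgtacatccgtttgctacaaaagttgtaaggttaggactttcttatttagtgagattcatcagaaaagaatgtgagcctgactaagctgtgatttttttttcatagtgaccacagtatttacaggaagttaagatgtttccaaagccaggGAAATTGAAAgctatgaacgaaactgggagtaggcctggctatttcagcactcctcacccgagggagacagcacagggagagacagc

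**Figure D4:**
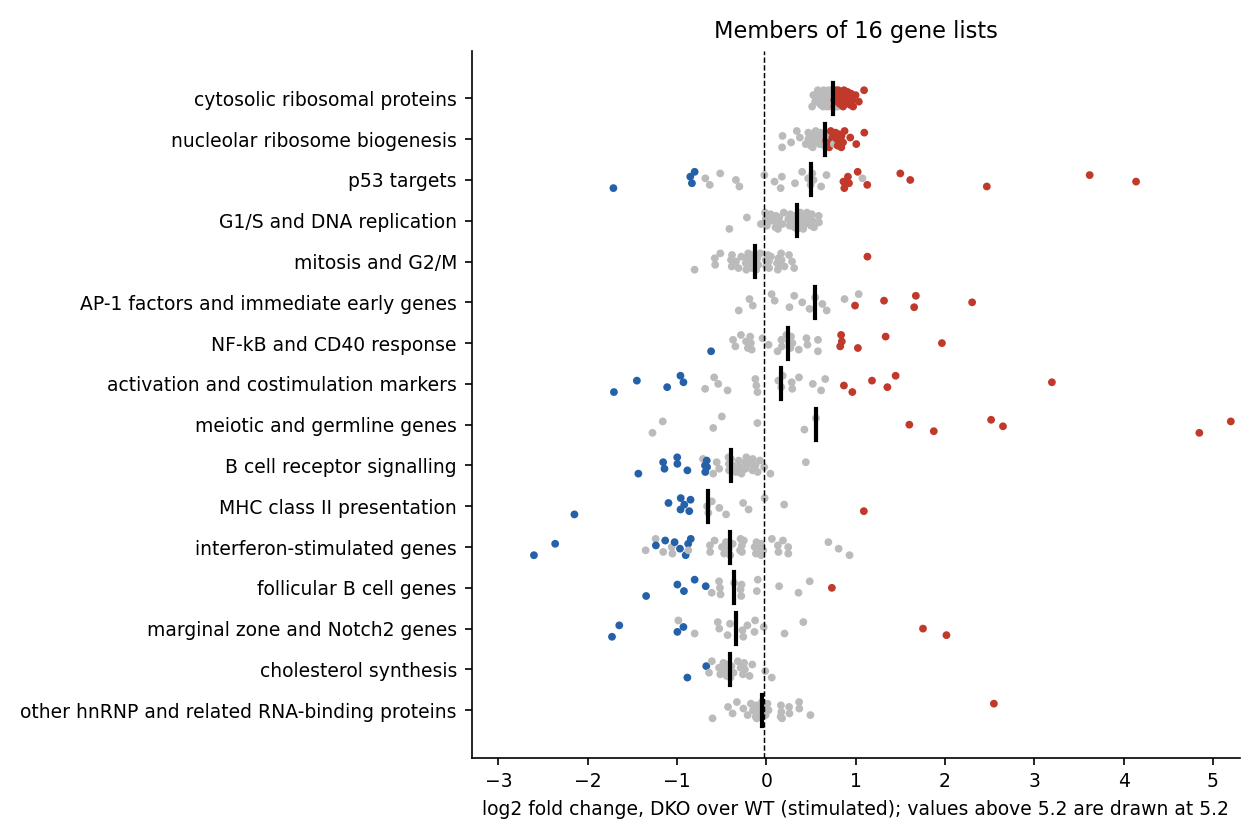
Log2 fold change of DKO over WT in stimulated cells (horizontal axis) of the tested members of 16 gene lists (vertical axis), 1 point a gene, red where higher and blue where lower past an adjusted p of 0.05, with a black bar at each list's median and a dashed line at the median of all tested genes (-0.03). Ribosomal protein genes lie wholly to the right (median 0.75) and most MHC class II genes to the left (median -0.65), while p53 targets and activation markers spread to both sides.

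Genes that mark B cell subsets and stages were more often lower than higher. Follicular genes numbered 5 falls and 1 rise of 19, marginal zone and Notch2 genes 4 and 2 of 20, B1 and atypical genes 4 and 1 of 16, and transitional genes 3 and 0 of 8. Of all tested genes 6.17% were lower and 5.09% higher. The lists are not independent, since Cr2 counts as a fall in both the follicular and the marginal zone list. Cr2, the complement receptor CD21, fell from 105 and 159 CPM to 53.6 and 78.8 CPM (-0.996 ± 0.25), and Cd1d1, a lipid-presenting molecule of marginal zone cells, fell from 28.5 and 28.5 CPM to 14.97 and 14.99 CPM (-0.93 ± 0.17). Cr2 thus differed within each genotype, whereas Cd1d1 was at nearly the same level in its pair of libraries. Myof (-1.65 ± 0.30) and Tm6sf1 (-1.73 ± 0.33) fell, whereas the Notch targets Hes1 (2.02 ± 0.50) and Hes5 (1.75 ± 0.35) rose from 1.58 CPM or less in WT. Hes1 lost the call with DESeq2 (adjusted p = 0.086). Zbtb20, a zinc finger factor of B1 and plasma cells, fell from 118 and 125 CPM to 15.9 and 51.2 CPM, far apart between the DKO libraries (-1.86 ± 0.42). Spn, which encodes CD43, the protein used for the bead depletion, fell from 84.1 and 80.3 CPM to 29.5 and 39.0 CPM (-1.26 ± 0.19). Myof, Tm6sf1, Zbtb20, Spn and Ms4a4c, a transitional gene (-1.16 ± 0.21), held, although Zbtb20 lost the call with DESeq2 (adjusted p = 0.0809). Without WT 1 the falls in these lists numbered 2, 3, 4 and 1, without the unnumbered WT library 1, 3, 4 and 1, without DKO 1 9, 5, 5 and 3, and without DKO 2 12, 9, 8 and 5.

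Germinal centre genes split evenly, with 4 rises and 4 falls among 29 (0 and 1 without WT 1, 2 and 1 without the unnumbered WT library, 6 and 6 without DKO 1, 6 and 9 without DKO 2). Cd38, an ectoenzyme lost by mouse germinal centre cells, fell from 184 and 221 CPM to 64.1 and 78.4 CPM (-1.51 ± 0.19, edgeR adjusted p = 0.00401) and held. Since germinal centre cells lose Cd38, its fall is in the direction of that stage, and the even count of calls is not an even split of the programme. Irf8 (563 and 534 against 307 and 262 CPM, -0.95 ± 0.18), Mef2c (585 and 582 against 278 and 343 CPM, -0.91 ± 0.19) and Bach2 (185 and 187 against 72.8 and 124 CPM, -0.92 ± 0.24), all factors of the germinal centre stage, fell. Myc and Batf, above, with Basp1 (1.06 ± 0.23) and Plxnb2 (1.16 ± 0.18), rose. Bcl6, the master factor of the stage, was at 9.40 and 14.8 CPM in WT and 7.56 and 7.53 CPM in DKO (-0.68 ± 0.26, edgeR adjusted p = 0.117). It did not pass, although the groups did not overlap. Ighg1, the constant region of IgG1, rose from 137 and 124 CPM to 227 and 250 CPM (0.87 ± 0.18, edgeR adjusted p = 0.0187), the only called gene among 12 constant regions (1 rise and 5 falls without DKO 1). Of 16 plasma cell genes 3 fell, Xbp1 (-0.78 ± 0.18), Ell2 (-0.94 ± 0.18) and Slamf7, and Prdm1, Irf4 and Jchain did not pass. The list of lineage transcription factors had 5 falls and 1 rise, Id2 (1.05 ± 0.23), among 29, and both counts of that list fell to 0 without either WT library.

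Among homing receptors, Ccr6, a chemokine receptor of memory precursors (133 and 140 against 35.9 and 74.95 CPM, -1.30 ± 0.30), fell and held, and Itgb7 (-1.21 ± 0.30) fell. Cxcr5, which guides cells to follicles (146 and 141 against 272 and 204 CPM, 0.73 ± 0.19), and Cxcr3 (2.14 ± 0.48) rose. Survival genes changed in both directions. Bmf, a killer protein of the BCL2 family, fell from 26 and 24.2 CPM to 9.59 and 10.6 CPM (-1.31 ± 0.19, edgeR adjusted p = 0.00593) and held. Bcl2l11, which encodes the killer BIM, fell from 191 and 195 CPM to 99.5 and 112 CPM (-0.87 ± 0.17), and Bcl2l2, a survival gene, fell (-0.99 ± 0.20), while Bcl2l1 and Bax rose. Family members that promote and that block death thus lay on both sides. Of 20 caspase and death receptor genes 3 rose and 3 fell, with Casp4 at -1.13 ± 0.18.

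Few genes of other RNA-binding proteins passed. Of 5 tested relatives of hnRNP A1, Hnrnpab rose from 928 and 717 CPM to 1430 and 1351 CPM (0.76 ± 0.20, edgeR adjusted p = 0.0445), a call lost without either WT library. Hnrnpa3, the closest paralogue by name, was at 220 and 207 CPM in WT and 164 and 205 CPM in DKO (-0.21 ± 0.19, edgeR adjusted p = 0.481), and Hnrnpa0 was at 0.60 ± 0.19 (edgeR adjusted p = 0.0693). Neither paralogue passed. Of 29 other hnRNP and related genes 1 passed, Hnrnpll, a splicing regulator of activated lymphocytes and plasma cells, which rose from 1.94 and 2.11 CPM to 11.1 and 12.7 CPM (2.55 ± 0.26, edgeR adjusted p = 0.00157) and held. Its libraries agreed within each genotype. Of 33 SR proteins and splicing regulators U2af1 (0.69 ± 0.17), which helps to recognise the 3′ splice site, and Pspc1 (0.87 ± 0.19), a paraspeckle protein, rose and 0 fell, with a list median of -0.16. This order did not last: higher and lower calls in the list numbered 2 and 4 with DESeq2, 3 and 7 in the fit over 10 libraries, 3 and 6 without DKO 1, 4 and 17 without DKO 2, and 0 and 0 without either WT library. None of 14 nonsense-mediated decay factors passed, while 6 rose and 3 fell without DKO 2 and 4 rose and 1 fell in the fit over 10 libraries.

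Several of the deepest falls and rises belong to none of these groups. Nxpe2 fell from 113 and 118 CPM to 15.99 and 17.7 CPM (-2.78 ± 0.17, edgeR adjusted p = 0.00016), and Myo1f, a myosin of blood cells, from 32.9 and 35.3 CPM to 5.96 and 7.40 CPM (-2.36 ± 0.20, edgeR adjusted p = 0.00103). Tenm4 fell from 5.62 and 4.61 CPM to 0.242 and 0.789 CPM (-3.35 ± 0.50). In all of them the genotypes were far apart. Cd276 (-2.41 ± 0.54), Hapln1 (-2.45 ± 0.36), Cd200r1 (-2.35 ± 0.36) and Siglecf (-2.24 ± 0.34) fell from under 10 CPM, and Synj2 fell from levels that differed widely between the WT libraries (19.5 and 90.8 against 6.49 and 9.10 CPM). Serpine2, a protease inhibitor, rose from 0.409 and 0.596 CPM to 16.03 and 12.4 CPM (4.81 ± 0.33, edgeR adjusted p = 0.000281), Epha2, a receptor kinase, from 0.409 and 0.542 CPM to 9.11 and 6.07 CPM (3.99 ± 0.40), Dact3, a Wnt pathway inhibitor, from 3.12 and 3.90 CPM to 42.2 and 24.0 CPM (3.24 ± 0.30), and Col27a1, a collagen, from 2.15 and 1.41 CPM to 19.8 and 14.2 CPM (3.25 ± 0.30). These risers were low in both WT libraries. Ptprc, which encodes CD45, fell from 1360 and 1406 CPM to 655 and 895 CPM (-0.84 ± 0.21), and Wdfy4, of cross-presentation, from 1132 and 1021 CPM to 549 and 634 CPM (-0.86 ± 0.19). Of these genes Ptprc and Wdfy4 did not hold and the others did. With offsets for exonic length Ptprc was at -0.49 and also lost the call (edgeR adjusted p = 0.0504).

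All libraries carried B cell markers at high levels, with Cd79a at 918 and 968 CPM in WT and 1014 and 682 CPM in DKO. Summed over 10 B cell identity markers without TMM scaling, the libraries stood at 13295 to 13978 CPM in WT and at 9319 to 10818 CPM in DKO. All 10 log2 fold changes were below 0, and 1, Cd22, passed. Markers of other cells were low and moved in both directions. Summed levels in WT and DKO were 15.9 to 21.8 and 11.9 to 20.4 CPM for 14 T cell markers, 8.31 to 8.41 and 3.81 to 4.19 CPM for 10 natural killer cell markers (Ncr1 at 0 counts), 75.1 to 90.7 and 59.0 to 62.0 CPM for 17 monocyte and macrophage markers, and 53.4 to 57.8 and 75.2 to 85.8 CPM for 10 dendritic cell markers (Clec10a at 0). They were 0.831 to 0.911 and 1.19 to 2.39 CPM for 10 neutrophil markers (Retnlg at 0), 10.6 to 15.2 and 8.60 to 10.2 CPM for 8 platelet markers (among them Ppbp and Gp1bb at 0), 330 to 374 and 363 to 536 CPM for 10 erythroid markers (Gata1 and Slc4a1 at 0), which are nearly all Tfrc, a receptor of dividing cells, and 109 to 123 and 48.5 to 56.0 CPM for 11 stromal and endothelial markers (Col3a1, Cxcl13 and Ccl19 at 0), which are nearly all Pecam1. Members past the threshold were Cd6 (-2.63 ± 0.42), Il2rb (-1.03 ± 0.28), Adgre1 (-0.69 ± 0.18), Mrc1 (-2.002 ± 0.55) and Pecam1 (-1.08 ± 0.18), all lower, and Flt3 (0.91 ± 0.20) and Gp1ba (2.25 ± 0.45), both higher. Il2rb and Mrc1 lost the call with DESeq2. Their part in the other results was not tested.

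Whether a genotype difference changed with stimulation was tested in 1 fit that added the 3 WT and 3 DKO libraries of untreated cells (15006 genes). The difference between the genotype effects passed for 21 genes (0.140%), 20 (0.133%) with a term above 0 and 1 (0.00666%) below, and 1802 had an unadjusted p under 0.05. Cdkn1a had a log2 fold change of 3.68 ± 0.32 in stimulated and -0.26 ± 0.20 in untreated cells, a difference of 3.93 ± 0.38 (edgeR adjusted p = 0.0025). Tnfrsf8 had 3.24 ± 0.26 and 0.50 ± 0.18, a difference of 2.74 ± 0.31 (edgeR adjusted p = 0.00488). Mean levels of Cdkn1a were 47.4 CPM in WT and 39.7 CPM in DKO in untreated cells and 1.82 and 23.3 CPM in stimulated cells. Those of Tnfrsf8 were 15.7 and 22.2 CPM untreated and 2.12 and 20.1 CPM stimulated. Levels of both were thus lower in stimulated than in untreated cells, by more in WT than in DKO, and neither genotype effect passed in untreated cells. The untreated and stimulated counts were deposited in separate tables, and the change from one state to the other was not tested. Lrrc32 (3.41 against -0.54, difference 3.94 ± 0.51), Col27a1 (3.30 against 0.31, difference 2.99 ± 0.39) and Idh2 (1.07 against -0.05, difference 1.12 ± 0.16) also had the larger genotype effect in stimulated cells. Of the 19 genes in the plot of both states with a term above 0, the WT mean was lower in stimulated than in untreated libraries for 16. Serpine2 (4.86 against 1.68, difference 3.19 ± 0.49) and Phlda3 (4.20 against 1.13, difference 3.07 ± 0.46) were higher in DKO cells in both states and more so after stimulation. Nlrc3, a member of the NOD-like receptor family, fell from 19.4 and 21.6 CPM to 4.46 and 5.52 CPM in stimulated cells, and its joint-fit change was -1.997 ± 0.19 against -0.49 ± 0.16, a difference of -1.51 ± 0.25 (edgeR adjusted p = 0.034).

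Cdkn1a held whichever stimulated library was left out, while the count of such genes was 3 without DKO 1, 10 without WT 1, 1 without the unnumbered WT library and 1244 without DKO 2 (677 above 0 and 567 below). DESeq2 called 162 genes (116 above and 46 below), and no filter on low counts gave 491 (354 and 137), so the split of 20 to 1 did not last. For the other genes, effects in the 2 states are given side by side with no claim that they are alike: Ccl22 was at 1.80 in untreated cells of the joint fit with a difference of 0.22, Bmf at -1.70 with 0.43, Etv5 at -2.10 with 0.20, Mt1 at 1.79 with -0.11, and Hnrnpa1 at -2.46 with -0.22. Stag3 was at 2.31 with a difference of 2.58, Myo1f at -0.75 with -1.56 and Cd80 at 0.16 with 1.33, and none of these differences passed.

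**Figure D5:**
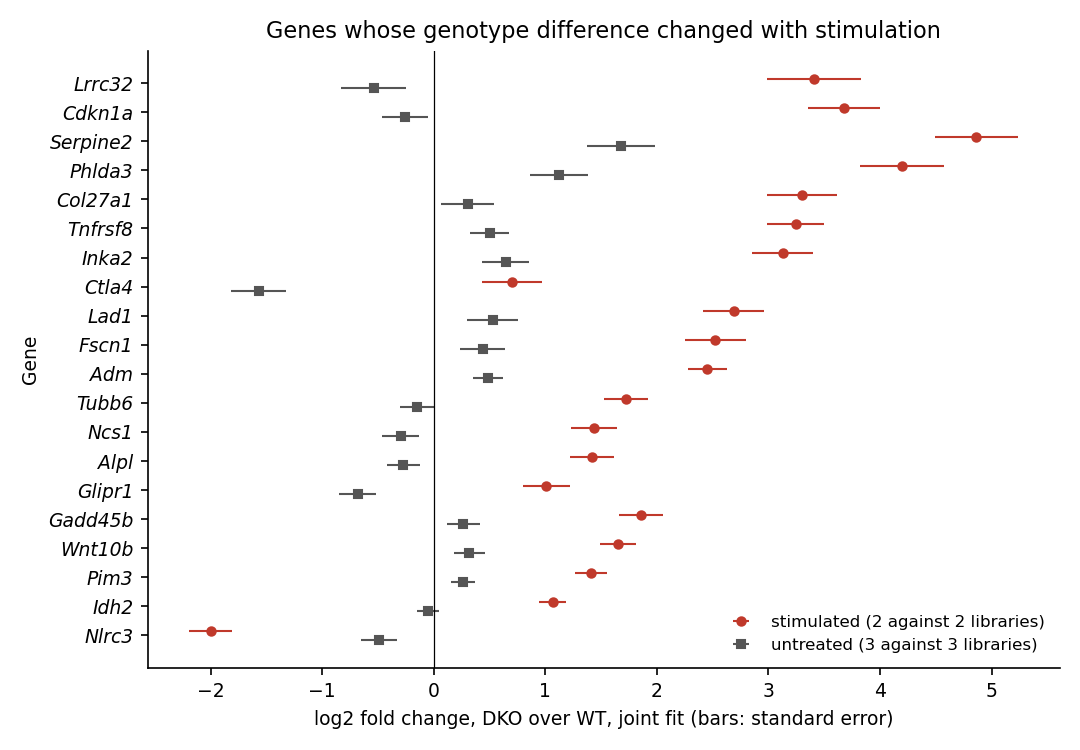
Log2 fold change of DKO over WT with its standard error (horizontal axis) in stimulated and untreated cells from the joint fit, for 20 of the 21 genes (vertical axis) whose genotype difference changed with stimulation, leaving out 1 gene under the expression minimum or without a name. Except for Ctla4, which was lower in untreated DKO cells, and Nlrc3, which fell, the stimulated values lie above 1 and the untreated values lie closer to 0.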

How the data were processed

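Poly(A) RNA of B cells from mouse spleen was measured by sequencing. The authors deposited raw counts for each Ensembl gene, 1 column a library. Per the submitters' processing notes, the authors used FastQC 0.10.1, cutadapt 1.9.1, HISAT2 2.2.1, GRCm39 and HTSeq 0.6.1. The strand setting and the release of the annotation were not given in the sources used here. Of the per-sample columns, 14 (FPKM values and additional WT cells) were not used. The stimulated WT columns carry the numbers 1 and 3 and the labels 1 and 2, so the second was used as WT without a number.

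DKO and WT were compared with edgeR 4.0.16 in R 4.3.3 (TMM scaling, filterByExpr at its minimum count, 10, and minimum total, 15, quasi-likelihood two-sided test, Benjamini-Hochberg adjustment over all tested genes, threshold 0.05). The fit of 4 libraries has 2 residual degrees of freedom, and each standard error is the size of the change divided by the square root of F. The interaction used 10 libraries and the 55349 genes common to both tables. The script was tested on simulated counts; where genes differed in their spread, false calls exceeded the nominal share, so calls near the threshold are the least secure.

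The comparison, the 58 gene lists and the naming rule were chosen with earlier results of these data known. Named genes were both targets, the 12 largest changes in each direction that reached a mean of 5 CPM in either group without overlap, the 6 largest CPM differences in each direction, up to 4 members of each list in each direction with the smallest p, and the 5 largest interaction terms in each direction. Lists are described by counts and medians. Genes without a name and immunoglobulin variable segments were left out. Alternatives were RLE scaling, DESeq2 1.42.0, other filters, leaving out each library, immunoglobulin genes left out, a fit of 10 libraries, a minimum log2 fold change of 1 and, chosen after seeing the data, offsets for exonic length. Intervals cover counting error only. Splicing was not analysed here. Some genes that the naming rule or the marker lists take in are not reported here, though list counts include them.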

Additional observations from a re-analysis of the deposited data

Results flagged for a closer look

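The genotype effect in stimulated cells differed from that in untreated cells, by the interaction term of the joint edgeR fit, for 8 genes that the text names. The terms on the log2 scale were 3.94 for Lrrc32, 3.93 for Cdkn1a, 3.19 for Serpine2, 3.07 for Phlda3, 2.99 for Col27a1, 2.74 for Tnfrsf8, 1.12 for Idh2 and -1.51 for Nlrc3. Leaving out each stimulated library in turn kept the call of Cdkn1a (terms from 3.51 to 4.27). The call of Tnfrsf8 was lost without the unnumbered WT library (2.44, edgeR adjusted p = 0.0515). Calls of the other 6 were each lost without at least DKO 1 and the unnumbered WT library, with the direction kept.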

How the results depend on the processing

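Counts of genes past the threshold moved with the filter and the libraries. All 1625 calls were among the 2847 made with no filter on low counts (1340 higher, 1507 lower). Leaving out 1 library gave 576 to 5977 calls, with 243 to 2997 higher and 333 to 2980 lower, and in the gene lists 75 to 657 in place of 214. One fit over 10 libraries gave 3429 calls (1921 higher, 1508 lower), 1543 of them shared, and 410 in the lists. A minimum log2 fold change of 1 left 895 (371 higher, 524 lower). Length offsets gave 2395 calls, of which 1266 were higher, against 734 of 1625, and 346 in the lists; 1570 were shared. No filter gave 374 calls in the lists. RLE scaling (1780), DESeq2 (1866), a stricter filter (1764) and leaving out immunoglobulin genes (1691) stayed within 1.5 times of the main count. Where an alternative changed a count, the cause was not tested.

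The interaction count of 21 (20 terms above 0) became 162 with DESeq2 (116 above), 491 with no filter (354 above), and 1 to 1244 on leaving out 1 stimulated library. With the replicate number of the untreated libraries as a block it was 3, all among the 21. Deviations of untreated WT and DKO libraries from their group means correlated across genes at -0.35, -0.35 and 0.14 for the same number. For unlike numbers the values ran from -0.21 to 0.44. With 3 libraries a genotype, whose deviations are tied to their own mean, these values cannot decide whether the numbers pair the samples. No paired analysis was possible because 1 stimulated WT library carries no number shared with a DKO library.

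Of the 171 named genes past the threshold, 111 lost the call without at least 1 library, most often a WT library, and no change of direction was seen. DESeq2 lost the calls of 7 (Fadd, Fosl2, Hes1, Il2rb, Mrc1, Ndufa5 and Zbtb20), the fit over 10 libraries those of 4 (Flt3, H2-Q4, Ifi208 and Psmb9) and length offsets those of 3 (Foxp1, Ndufa5 and Ptprc). With 2 libraries a side and 2 residual degrees of freedom, a gene that did not pass is not shown to be unchanged.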
